A study of Homo sapiens with 6 samples.

Results

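The family of miR-148 and miR-152 was examined in small RNA libraries of the cell line MDA-MB-231, which was established from a human breast cancer of the triple-negative type, after treatment with withaferin A (WA), a steroidal lactone of Withania somnifera. All rows of the deposited table that are named for miR-148a, miR-148b or miR-152 were taken, which gave 4 of 413 miRNAs. The study describes 413 miRNAs as those found in both groups, out of more in each group. Some rows were nevertheless at 0 in every WA library. Shares and counts below therefore refer to this selection and not to all miRNAs of the cells. These were the guide strands hsa-miR-148a-3p, hsa-miR-148b-3p and hsa-miR-152-3p and the partner strand hsa-miR-148a-5p. The WA group (n = 3) received 2 µM WA for 24 h. The vehicle group (n = 3) is described in the methods as cells given DMSO, whereas the sample labels call them untreated and name no DMSO. The labels name the same line for both groups, and the methods describe no difference in culture conditions other than the treatment. Whether every library holds this line alone was not tested. The study calls the replicates independent, but neither it nor the labels say that they were separate cultures, so p-values measure only the spread between these libraries, which may be technical.

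A miRNA is cut from a hairpin precursor, and 1 strand of the resulting duplex, the guide, is held by an Argonaute protein. Bases 2 to 8 of the guide, called the seed, pair with sites in messenger RNAs and lower their output. Guides with the same seed form a family with largely shared targets, and the family of miR-148 and miR-152 is known for its site in the mRNA of DNMT1, the enzyme that maintains DNA methylation when DNA is copied. In breast and other tumours these miRNAs are usually described as tumour suppressors, and the genes of some members are themselves silenced by DNA methylation.

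The 3 guides are shown with their seeds in capitals, because the seed is what makes them a family and the few other differing bases are what allows reads to be told apart. Sequences are from RefSeq on GRCh38.p14, and RefSeq sequences were found for all 3.
miR-148a-3p: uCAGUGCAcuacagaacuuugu
miR-148b-3p: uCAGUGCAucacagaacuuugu
miR-152-3p: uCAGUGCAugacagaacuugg
They are 22, 22 and 21 bases long. With positions counted from 1 at the 5′ end and miR-148a-3p as the reference, miR-148b-3p differs by C9U and U10C, and miR-152-3p differs by C9U, U10G and U20G. Compared with miR-148b-3p, miR-152-3p differs by C10G and U20G. The rule by which reads shared between such near-identical strands were assigned is not given in the sources used here, so the division of reads among the 3 guides carries an uncertainty that the replicate spread does not show. Among the 368 listed miRNAs that have a RefSeq sequence, the seed was found at bases 2 to 8 of these 3 guides and of no other.

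The hairpins are shown with the guide in capitals, since each of the 3 comes from a gene on another chromosome.
MIR148A: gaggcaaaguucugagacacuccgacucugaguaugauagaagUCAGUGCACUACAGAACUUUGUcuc
MIR148B: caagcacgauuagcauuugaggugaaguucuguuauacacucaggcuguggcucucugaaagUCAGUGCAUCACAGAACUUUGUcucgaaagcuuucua
MIR152: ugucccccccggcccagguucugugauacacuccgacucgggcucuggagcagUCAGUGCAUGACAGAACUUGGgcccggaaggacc
MIR148A lies on the minus strand of chromosome 7 at chr7:25949919-25949986, inside the bounds of an annotated long noncoding RNA gene (ENSG00000270933). MIR148B lies on the plus strand at chr12:54337216-54337314, in intron 1 of COPZ1 and inside another long noncoding RNA gene (ENSG00000258344). MIR152 lies on the minus strand at chr17:48037161-48037247, in intron 1 of COPZ2. COPZ1 and COPZ2 encode paralogous subunits of the COPI coat, which carries vesicles from the Golgi apparatus to the endoplasmic reticulum. The hairpins are on the same strand as these genes and overlap no exon of their MANE transcripts in the GENCODE annotation of GRCh38.

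The stretch of DNMT1 that matches the seed is shown with the 7 complementary bases in capitals, because DNMT1 is the best known target of the family.
DNMT1 match: caggaatccccaacaTGCACTGatg
It lies on the minus strand at chr19:10133610-10133634 in the 3′ UTR, where the match begins at base 48 of 321. The letters TGCACTG, searched on the mRNA strand, were in the 3′ UTR of 2619 of 18780 MANE transcripts (13.9%), and they were not in the 3′ UTRs of DNMT3A and DNMT3B, whose coding regions held 1 and 2 matches. mRNA and protein of these enzymes were not analysed here.

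The deposited value of a miRNA is a read count scaled by a factor for each library, and is here named the normalized value. Within a library all values were multiples of 1 step, and reads below are numbers of steps, on the assumption that 1 step is 1 read. Summed over the 413 listed miRNAs, the vehicle libraries held 710878 to 4778066 reads and the WA libraries 156442 to 2232934. By this sum WA replicate 1 was the shallowest. Reads outside the listed miRNAs are not counted. The libraries did not group by treatment alone. Over the 413 miRNAs, the Pearson correlation of log2(normalized value + 1) was 0.987 between vehicle replicates 2 and 3 and 0.964 between WA replicates 1 and 2. For vehicle replicate 1, r with the rest of its group was 0.785 and 0.792. For WA replicate 3, r was only 0.630 and 0.641 within its group but 0.772 to 0.797 with the vehicle libraries. Values are therefore given by library. Of 6 miRNAs abundant in basal-like mesenchymal breast lines, all 6 were in the table, with summed values of 292585 to 600590 in the vehicle group and 347529 to 402648 in the WA group. One of them, miR-155-5p, was at 2.71, 0 and 1.22 in vehicle replicates 1 to 3 and at 26488, 24844 and 3.01 in WA replicates 1 to 3. Of 5 epithelial markers, 4 were in the table, and all 4 were listed at 0 in WA replicates 1 and 2. Their sums were 192 to 1820 in the vehicle group and 0 to 1240 in the WA group. Of 7 blood cell markers, only miR-486-5p was in the table. It was at 492 to 911 in the vehicle group and 0 to 1223 in the WA group.

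miR-152-3p was the member whose vehicle and WA libraries were fully separated. Its normalized value was 98.9, 72.0 and 59.6 in vehicle replicates 1 to 3 and 1270, 1522 and 385 in WA replicates 1 to 3. These values correspond to 73, 252 and 195 reads in the vehicle libraries and to 219, 852 and 512 reads in the WA libraries. The lowest WA library was 3.89 times the highest vehicle library, and WA replicates 1 and 2 lay close together well above WA replicate 3. The vehicle libraries were tight, with a highest-to-lowest ratio of 1.66. The group means were 76.8 ± 20.1 (SD, n = 3) for vehicle and 1059 ± 597 (SD, n = 3) for WA.

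The log2 fold change of miR-152-3p on the log2(normalized value + 1) scale was 3.57 (standard error 0.859, 95% interval 1.57 to 5.58), or 11.9-fold, and 10 of the 327 tested miRNAs had a larger one. By limma, fitted across the 327 miRNAs that reached a normalized value of 10 in 3 or more libraries, the unadjusted p was 0.00367 and the Benjamini-Hochberg adjusted p was 0.0601. It thus missed an adjusted threshold of 0.05, which 5.5% of the tested miRNAs passed. It met the fold cutoff of the study's methods, a log2 fold change of 1.5, at an unadjusted p under 0.05, as did 4.59% of the tested miRNAs in the upward direction. Such calls numbered 15 upward against 71 downward, or 23 upward against 56 downward after upper-quartile scaling. The filter can be met by the vehicle libraries alone. Of the listed miRNAs, 392, 410 and 411 were above 0 in vehicle replicates 1 to 3, and 247, 267 and 361 in WA replicates 1 to 3. Among the 173 with a value of 10 in every library, calls numbered 11 upward against 17 downward. The groups of miR-152-3p did not overlap, as held in the upward direction for 7.65% of the tested miRNAs. The exact permutation test over the libraries gave a two-sided p of 0.1, the smallest that 3 against 3 allow. Without WA replicate 3 the log2 fold change was 4.19 and the limma adjusted p was 0.00170, in a fit where 45.0% of the tested miRNAs passed. With any one of the other libraries left out, the log2 fold change was between 3.20 and 3.77 and the adjusted p between 0.0587 and 0.252. With no filter on low values the adjusted p was 0.0349, and 12.8% of the 413 miRNAs passed.

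Markers of another cell type also differed between the libraries. Of 6 markers of fibroblasts and smooth muscle, 4 were in the table, and their summed value was 16.3 to 62.5 in the vehicle group and 133 to 8053 in the WA group, highest in WA replicates 1 and 2. Under WA most of the sum came from miR-199a-3p, at 3670, 4499 and 66.1, and from miR-199b-3p, at 1791, 2226 and 33.1. Under vehicle miR-199a-3p read 0, 8.28 and 3.97 and miR-199b-3p 0, 4.28 and 2.14, and most of the sum came from miR-143-3p. The rows of miR-199a-3p and miR-199b-3p rose and fell together over the libraries and should not be read as separate evidence. miR-145-5p was scarce in all libraries, at no more than 21.4. miR-143-3p was high in WA replicates 1 and 2 only, at 783 and 1306, and its 29.3 in WA replicate 3 lay within the vehicle range of 16.3 to 49.4. This pattern was not particular to the fibroblast list. miR-155-5p, from the basal-like list above, was also high in WA replicates 1 and 2 alone, at 26488 and 24844. The part of these markers in the result for miR-152-3p was not tested.

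**Figure D1:**
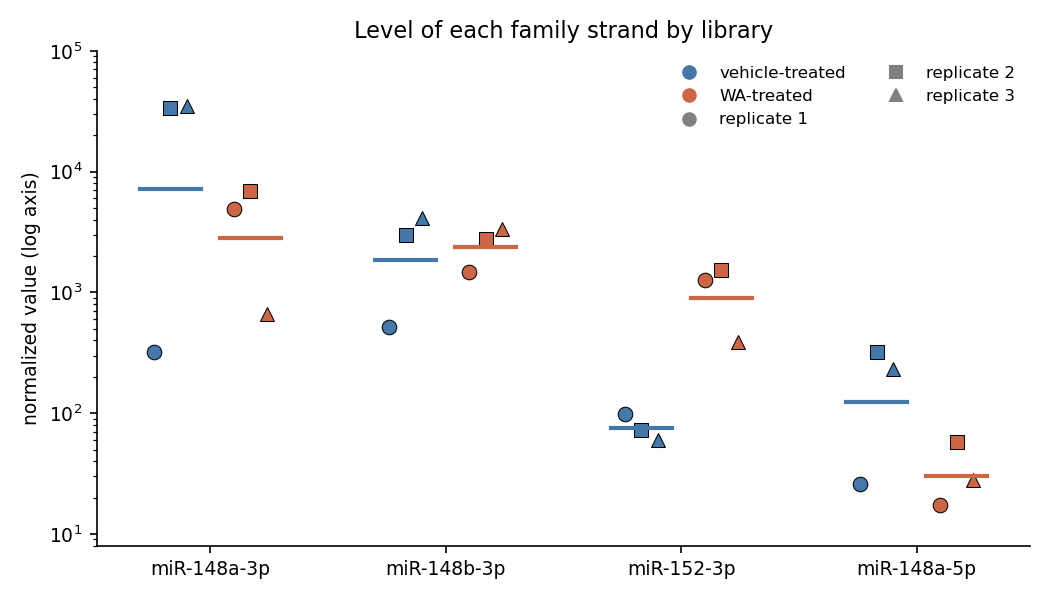
Normalized value (log axis) of the 4 strands in each library, with vehicle-treated libraries in blue, WA-treated libraries in orange and a marker shape for each replicate number. Horizontal bars are geometric means of 3 libraries. Only miR-152-3p has all WA libraries above all vehicle libraries, the lowest at 385 against a highest vehicle value of 98.9.

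miR-148a-3p was the most abundant member in 4 of the 6 libraries, and its level varied widely within both groups. It was at 318, 33431 and 34875 in vehicle replicates 1 to 3 and at 4922, 6888 and 658 in WA replicates 1 to 3. The groups overlapped, because vehicle replicate 1 held the lowest value of all 6 libraries and vehicle replicates 2 and 3 the highest. It ranked 6 and 7 among the 413 miRNAs in vehicle replicates 2 and 3. There it held 2.45% (95% exact binomial interval 2.44 to 2.46) and 2.72% (2.70 to 2.73) of the reads summed over these miRNAs. In vehicle replicate 1 it ranked 122, with 235 reads or 0.0331% (0.0290 to 0.0376). In the WA libraries it ranked 30, 29 and 89. These intervals cover counting error only.

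The difference between vehicle libraries was far beyond counting error. The lower of vehicle replicates 2 and 3 was 105 times vehicle replicate 1, a gap that 2 of the 327 tested miRNAs exceeded. WA replicate 3 lay 7.48-fold under the lower of the other WA libraries, a gap that 39 tested miRNAs exceeded. Over all 6 libraries the log2 fold change of miR-148a-3p was -1.35 (standard error 1.90, 95% interval -5.78 to 3.08), with a limma adjusted p of 0.633. The interval runs from a large fall to a rise, so neither direction nor absence of change is shown. Without vehicle replicate 1 the log2 fold change was -3.60, with an unadjusted p of 0.0250 and a limma adjusted p of 0.128. Without vehicle replicate 2, vehicle replicate 3 or WA replicate 3 it was -0.24, -0.21 and -0.30.

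miR-148a-5p, the strand from the other arm of the same hairpin, is usually the less abundant one. Vehicle replicates 1 to 3 read 25.7, 322 and 232, and WA replicates 1 to 3 read 17.4, 57.2 and 27.8. Vehicle replicates 2 and 3 stood above the other 4 libraries, and vehicle replicate 1 lay within the range of the WA libraries. The count in WA replicate 1 was only 3 reads. The log2 fold change was -2.01 (standard error 1.35, 95% interval -5.17 to 1.15) with a limma adjusted p of 0.378. Without vehicle replicate 1 it was -3.13, with an unadjusted p of 0.0190 and a limma adjusted p of 0.124. With any one of the other libraries left out it was between -2.46 and -1.33, with an unadjusted limma p between 0.17 and 0.47. A log2 fold change of -1.5 or lower at an unadjusted p under 0.05 was found for 21.7% of the tested miRNAs and for 0 of the 2 strands of miR-148a. Without vehicle replicate 1 it was found for 18.0% and for both strands. With any one of the other libraries left out it was found for neither strand. Both strands come from the same hairpin, so they are not separate evidence. With all libraries, 19.6% of the tested miRNAs had every WA library under every vehicle library.

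The 2 arms did not keep a fixed ratio. miR-148a-5p made up 0.954% (95% exact interval 0.900 to 1.01) and 0.661% (0.615 to 0.709) of the miR-148a reads in vehicle replicates 2 and 3. In vehicle replicate 1 it made up 7.48% (4.56 to 11.4), or 19 of 254 reads. In the WA libraries it made up 0.352% (0.0727 to 1.03), 0.823% (0.564 to 1.16) and 4.05% (2.87 to 5.54). The share was thus highest in vehicle replicate 1 and WA replicate 3, the libraries with the least miR-148a-3p. There it rests on 19 and 37 reads of miR-148a-5p. Because miR-148a-3p is part of the total, a low level of it raises the share unless miR-148a-5p falls as much. The log2 ratio of the 5p to the 3p strand differed between groups by -0.66 (exact permutation test, p = 0.6), with means of -5.83 ± 1.97 (SD, n = 3) and -6.49 ± 1.81 (SD, n = 3). Its sign turned without vehicle replicate 1 (0.47) or WA replicate 1 (0.13).

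miR-148b-3p was the steadiest member across the WA libraries. Vehicle replicates 1 to 3 read 513, 2960 and 4114, and WA replicates 1 to 3 read 1478, 2782 and 3322. Vehicle replicate 1 was again the lowest library, and the WA values lay inside the vehicle range. The means were nearly equal, at 2529 ± 1838 (SD, n = 3) and 2527 ± 948 (SD, n = 3). The log2 fold change was 0.38 (standard error 0.913, 95% interval -1.75 to 2.51) with a limma adjusted p of 0.789. Without vehicle replicate 1 it turned to -0.55. The interval covers changes of several fold in both directions, so the near-equal means do not show that its level was unaffected.

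**Figure D2:**
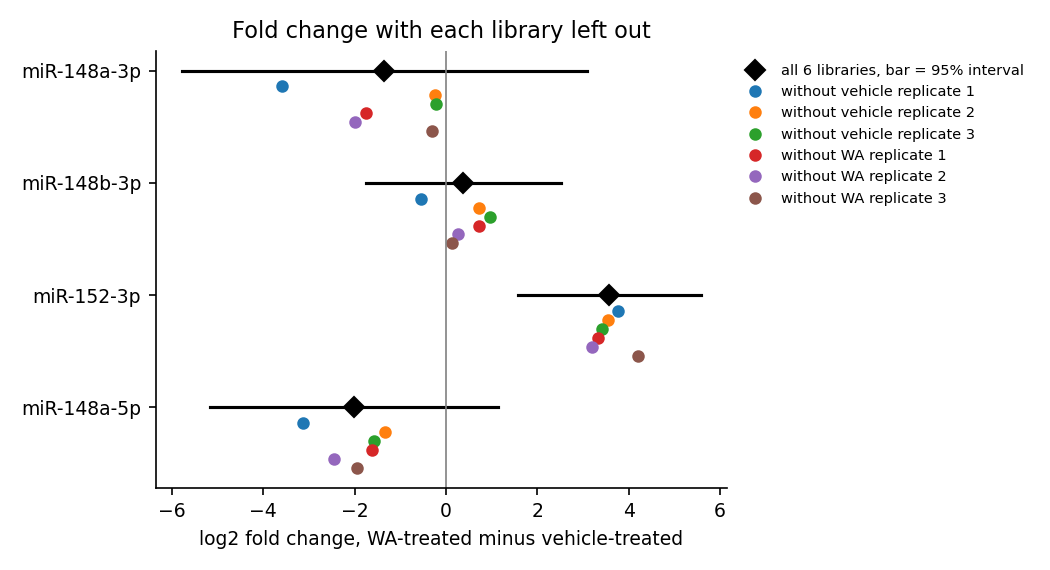
Log2 fold change (WA-treated minus vehicle-treated, horizontal axis) of each strand by limma, with all 6 libraries (black diamond, bar = 95% interval) and with each library left out in turn (coloured points). The points of miR-152-3p stay between 3.20 and 4.19, whereas those of miR-148a-3p run from -3.60 to -0.21 and those of miR-148b-3p cross 0.

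**Figure D3:**
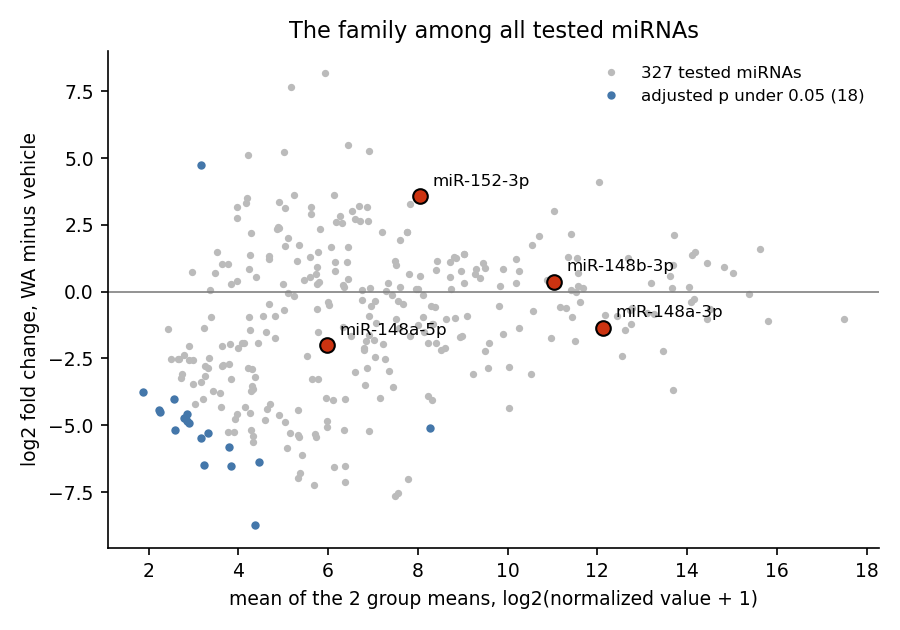
Log2 fold change (vertical axis) against the mean of the group means on the log2(normalized value + 1) scale (horizontal axis) for the 327 tested miRNAs. Red points are the 4 family strands and blue points the 18 miRNAs with a limma adjusted p under 0.05. No family strand is among the blue points.

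Against all 327 tested miRNAs, whose median log2 fold change was -0.91, the 4 strands had a median of -0.49. All 4 passed the filter. By limma, the adjusted p was under 0.05 for 0 of them and the unadjusted p for 1. Over all tested miRNAs 86 had an unadjusted p under 0.05.

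Because the 3 guides share a seed, their summed level is the measured total of that seed from the family. The sum came to 930, 36462 and 39048 under vehicle and to 7670, 11192 and 4364 under WA. The WA values all lay between vehicle replicate 1 and the other vehicle libraries. The sum on the log2 scale differed by -0.61 between groups (exact permutation test, p = 0.8), by -2.39 without vehicle replicate 1, and by 0.26 and 0.31 without vehicle replicate 2 or 3.

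The make-up of this pool also differed between libraries of the same group. miR-148a-3p made up 91.7% (95% exact interval 91.5 to 91.8) and 89.3% (89.1 to 89.5) of it in vehicle replicates 2 and 3, but 34.2% (30.7 to 37.9) in vehicle replicate 1. In the WA libraries its share was 64.2% (61.5 to 66.8), 61.5% (60.3 to 62.7) and 15.1% (14.2 to 16.0). miR-148b-3p was the largest component in vehicle replicate 1, at 55.2% (51.4 to 58.9), and in WA replicate 3, at 76.1% (75.0 to 77.2).
miR-152-3p held 0.197% (0.174 to 0.223) and 0.153% (0.132 to 0.176) in vehicle replicates 2 and 3. It held 10.6% (8.42 to 13.2) in vehicle replicate 1 and 16.6% (14.6 to 18.7), 13.6% (12.8 to 14.5) and 8.81% (8.10 to 9.57) in the WA libraries. On this scale, which does not depend on how libraries are normalized, vehicle replicate 1 lay within the range of the WA libraries. A low level of miR-148a-3p raises this share, and miR-148a-3p was at only 318 in vehicle replicate 1. The level of miR-152-3p itself was 98.9 there, under its lowest WA value of 385.

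**Figure D4:**
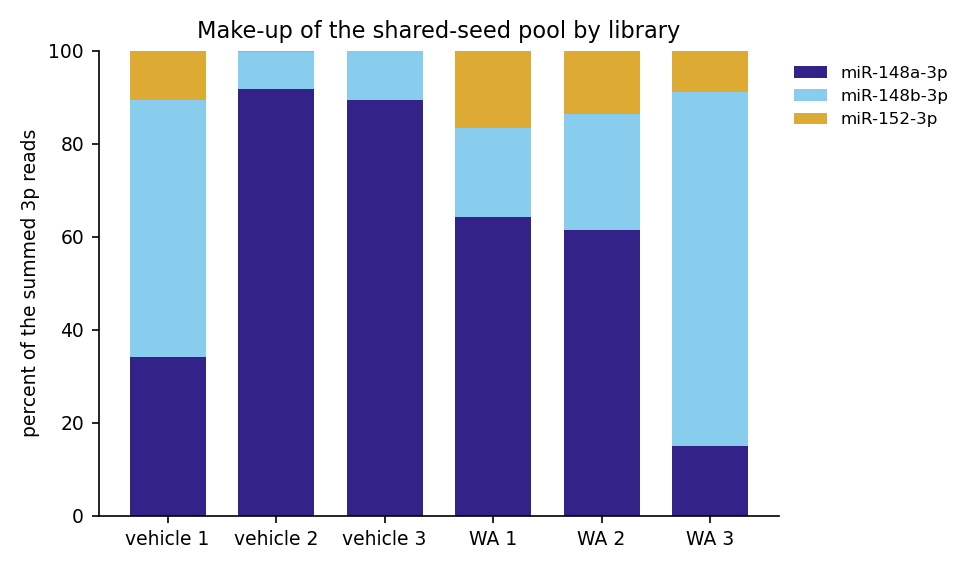
Percent of the summed reads of the 3 guides (vertical axis) contributed by each guide in each of the 6 libraries. miR-148a-3p fills 91.7% and 89.3% of vehicle replicates 2 and 3, whereas miR-152-3p is visible in vehicle replicate 1 (10.6%) and in all WA libraries (8.81% to 16.6%).

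Ratios between guides within a library address whether the members responded differently, and library scaling cancels in them except for the pseudocount. With 1 added to each value, the log2 ratio of miR-152-3p to miR-148a-3p was -1.68, -8.84 and -9.17 under vehicle, against -1.95, -2.18 and -0.77 under WA. Vehicle replicate 1 lay above WA replicates 1 and 2, so the groups overlapped. The difference of 4.93 had an exact permutation p of 0.3, and it was 7.37 without vehicle replicate 1, where 2 against 3 libraries gave p = 0.1, the smallest possible. The log2 ratio of miR-152-3p to miR-148b-3p was -2.36, -5.34 and -6.09 against -0.22, -0.87 and -3.11. Here WA replicate 3 fell under vehicle replicate 1. The difference was 3.20 (exact permutation p = 0.2).
The log2 ratio of miR-148b-3p to miR-148a-3p was 0.69, -3.50 and -3.08 against -1.73, -1.31 and 2.33. It was above 0 in vehicle replicate 1 and WA replicate 3 alone. The difference was 1.73 (exact permutation p = 0.5). Over the 5 exact tests of ratios and of the sum, the Benjamini-Hochberg adjusted p was 0.75 or 0.8. With 3 against 3 libraries the smallest p is 0.1, so these tests could not have passed 0.05 and do not show whether the members responded alike.

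**Figure D5:**
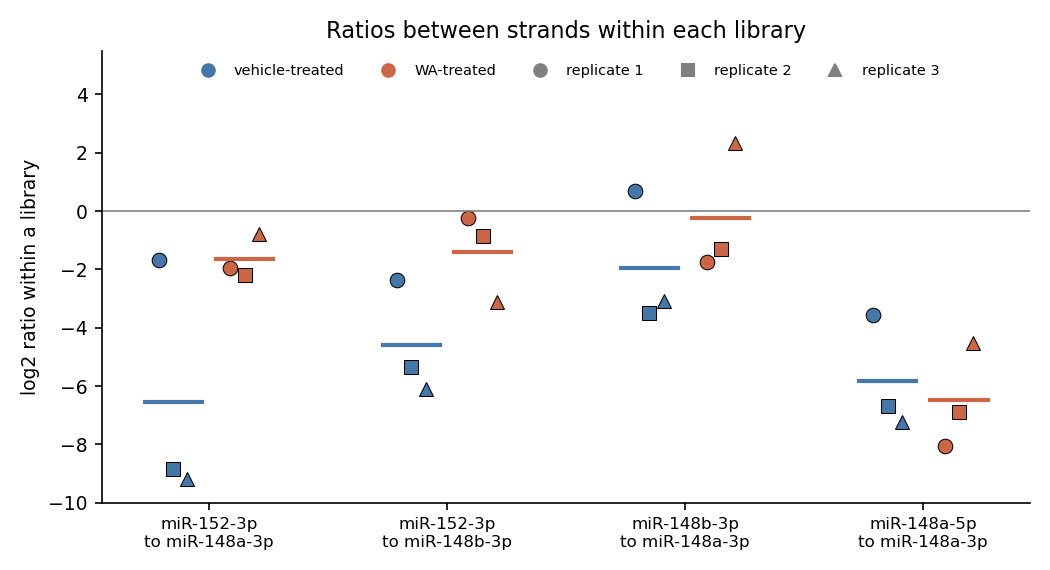
Log2 ratio of strands within each library (vertical axis) for 4 pairs, with vehicle-treated libraries in blue, WA-treated libraries in orange, marker shapes for replicate numbers and bars at group means of 3 libraries. Vehicle replicate 1 lies within the WA range for the 3 pairs of guides, for example at -1.68 for miR-152-3p to miR-148a-3p against WA values of -2.18 to -0.77, and above all WA libraries for miR-148a-5p to miR-148a-3p, at -3.58.

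The tested miRNAs whose log2 values followed each guide most closely over the 6 libraries were found by Pearson correlation, given as a description. The points share the depth and the overall differences of the 6 libraries, and no test was made. For miR-148a-3p they were miR-7-5p (r = 0.991), miR-27b-3p (r = 0.978) and miR-378a-3p (r = 0.961). All 3 were lower in vehicle replicate 1 than in vehicle replicates 2 and 3, as miR-7-5p was at 1344 against 21588 and 14823. For miR-148b-3p they were miR-125b-1-3p (r = 0.937), miR-140-5p (r = 0.936) and miR-27a-5p (r = 0.934).
For miR-152-3p they were miR-130b-3p (r = 0.964), miR-199b-3p (r = 0.957), one of the fibroblast markers above, and miR-195-5p (r = 0.952). Between the guides themselves r was 0.664 for miR-148a-3p with miR-148b-3p, -0.203 for miR-148a-3p with miR-152-3p and 0.00948 for miR-148b-3p with miR-152-3p. miR-152-3p thus did not follow either of the other guides over these libraries.

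miR-130b-3p carries the same 7 letters, shifted by 1 base to the 5′ end, and is shown beside miR-152-3p for that reason, with the shared letters in capitals.
miR-130b-3p: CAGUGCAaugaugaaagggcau
miR-152-3p: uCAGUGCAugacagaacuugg
Its level was 77.2, 80.5 and 60.8 under vehicle and 1548, 1451 and 156 under WA. These levels are close to those of miR-152-3p in every library other than WA replicate 3, where miR-152-3p was at 385. The log2 fold change of miR-130b-3p was 3.27 with a limma adjusted p of 0.122. miR-301a-3p, which also begins with these letters and was named after its values were seen, was at 28.4, 14.3 and 10.7 against 46.4, 48.2 and 6.01, so its groups overlapped. The letters CAGUGCA, searched at any position of the mature strand, were in 10 of the 368 listed miRNAs with a sequence (2.72%). These 10 include the 3 guides. Listed miRNAs without a RefSeq sequence could not be searched, so other carriers may be missed.

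Other miRNAs known to target DNA methyltransferases were examined as a list of 9, all of which were tested. They were miR-29a-3p, miR-29b-3p and miR-29c-3p, known for sites in DNMT3A and DNMT3B, miR-185-5p, miR-342-3p, miR-126-3p and miR-140-5p, described as targeting DNMT1, and miR-101-3p and miR-143-3p, described as targeting DNMT3A. By limma, 0 of the 9 passed at an adjusted p of 0.05 and 0 at an unadjusted p of 0.05, beside 5.5% and 26.3% of all tested miRNAs. The groups overlapped for all 9, whereas 7.65% of all tested miRNAs were higher and 19.6% lower without overlap. The log2 fold change was above 0 for 7 and below 0 for 2, with a median of 0.85, against 39.4% above 0 and a median of -0.91 over all tested miRNAs. The list's median was 0.26 without WA replicate 3 and 1.30 without WA replicate 2. It turned to -0.13, with 4 above 0, without vehicle replicate 1.
miR-29a-3p, the most abundant of them, read 24450, 13827 and 10862 under vehicle and 18476, 19643 and 92220 under WA. miR-143-3p, which is also on the fibroblast list, had the largest log2 fold change of the list, 3.22 (standard error 1.58, limma adjusted p = 0.237), with 16.3, 49.4 and 43.4 under vehicle and 783, 1306 and 29.3 under WA. Its level in WA replicate 3 was within the vehicle range, unlike that of miR-152-3p. miR-126-3p was at 211, 1403 and 1753 against 58.0, 17.9 and 5834, with a log2 fold change of -2.11 (limma adjusted p = 0.525). Without WA replicate 3, the log2 fold change was 4.90 for miR-143-3p (limma adjusted p = 0.00337) and -4.59 for miR-126-3p (limma adjusted p = 0.0210), so 2 of the 9 passed, beside 45.0% of all tested miRNAs in that fit.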

How the data were processed

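Small RNA libraries of 3 vehicle-treated and 3 WA-treated samples were used. After trimming and Bowtie alignment to GRCh38.p10, the authors discarded other noncoding RNA and assigned what was left to mature miRNAs of miRBase. Deposited signal values are read counts that the authors divided by library size factors from DESeq2. The deposited file also holds the authors' fold ratio, log2 fold change, p-values and adjusted p-values, and none of these 4 columns was used. No other column was left out.

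R 4.3.3 with limma 3.58.1 compared the groups, unpaired and two-sided and with a variance trend, using log2(normalized value + 1) of miRNAs that reached 10 in 3 or more libraries. Benjamini-Hochberg adjustment covered all 327. The fit was first run on simulated data with no outlying libraries, so that run does not measure its error rates here. Ratios and sums were compared by two-sided exact permutation tests over libraries. Python 3.11.15, scipy 1.17.1 and pandas 2.3.3 served for the rest. Steps were found in all 6 libraries, with 100% of values whole multiples within 0.01 of a step. From 20 to 36 miRNAs per library were at 1 to 5 steps. Intervals are exact binomial and assume that 1 step is 1 read. Sequences came from RefSeq (GRCh38.p14), and hairpins were the same in GENCODE. No pair of libraries agreed within sampling noise (chi-square per degree of freedom of at least 14.4).

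Named miRNAs were the family, the DNA methyltransferase list, miRNAs with the same seed, the markers, and the 3 with the highest Pearson correlation to each guide. The members and lists were chosen with earlier results of these data known. Alternatives were other scalings, pseudocounts and filters, no variance trend, the replicate number as a block, thinning, and each library left out.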

Additional observations from a re-analysis of the deposited data

How the results depend on the processing

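For the 4 strands, the direction and side of the threshold held under total-count, upper-quartile and trimmed-mean scaling, pseudocounts of 0.1 and 10, a value of 10 in every library, no variance trend, thinning and the replicate block. Upper-quartile scaling moved the median log2 fold change of all tested miRNAs by 0.25, to -0.66, and that of miR-152-3p to 3.84. With no filter, the log2 fold change of miR-152-3p (3.57) reached a limma adjusted p of 0.0349. With each library left out it ran from 3.20 to 4.19, and miR-148b-3p from -0.55 to 0.95. The summed level ran from -2.39 to 0.31 and the ratio of miR-148a-5p to miR-148a-3p from -1.64 to 0.47. The number of miRNAs at an adjusted p under 0.05, 18, was 0 with upper-quartile scaling (79 at an unadjusted p under 0.05), 7 with pseudocounts of 0.1 and 10 (84 and 87 unadjusted), 53 with no filter and 0 with a value of 10 in every library (29 unadjusted). It ran from 0 to 147 with libraries left out, highest without WA replicate 3. The number meeting the study's cutoff, 86, was 139 with no filter, 28 with a value of 10 in every library, and 46 to 167 with libraries left out. Of the DNA methyltransferase list, 2 passed without WA replicate 3. The cause was not tested.

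Same-numbered libraries did not deviate together (correlations of -0.07, 0.06 and -0.09), so the numbers were not taken as pairs. With the replicate block the limma adjusted p of miR-152-3p was 0.0821 and the number of calls was 24, within 1.5 times of 18. By Spearman correlation, 1 of the 3 miRNAs most like miR-152-3p was the same, and none for the other guides. The planned count tests were not run, because too few low values fix the steps as reads. Rows for miR-148b-5p and miR-152-5p were not in the table analysed here, and those alternatives could not be fitted.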
